A study of Mus musculus with 5 samples.

Results

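The liver of mice on an atherogenic diet with atorvastatin was compared with the liver of mice on standard chow, gene by gene, to describe what differs from chow while the drug is given. The series holds 5 oligonucleotide arrays, and 2 of them make this comparison: the array of livers from C57B/L mice given the atherogenic diet for 10 weeks with atorvastatin in the last 3 weeks, and the array of livers from C57B/L mice given chow for 10 weeks. All mice were 8 weeks old and were kept for 2 weeks before the feeds began. The other arrays, from C57B/L mice on chow for 1 week, on the diet for 1 week and on the diet for 10 weeks without the drug, are used only to set each value beside its neighbours. The 1-week diet array is grouped by its title and protocols, while its source name reads chow. No group got atorvastatin on chow. The sources used here do not give the composition of the diet, the dose of the drug, the sex of the mice or the number of livers in a pool. Each array carries RNA of pooled livers and there is 1 array per group, so there is no replicate error, no test and no p-value, and the number of arrays limits the precision. In pooled whole liver, fewer cells of a type and less RNA per cell cannot be told apart.

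Genes were taken by the annotation of their probe sets: 12393 genes have a probe set with 1 gene symbol, and 9264 of them were measured, meaning above a floor signal of 138.8 on at least 1 of both arrays. The floor is the 40th percentile of all signals, and a signal under it was set to it. The ratio is given as log2 of the atorvastatin signal over the chow signal, so that 1 is a 2-fold higher signal and -1 a 2-fold lower one. A fold with its dimmer side at the floor is a lower bound and carries the words at least, and a second probe set's ratio is marked in the same way. Genes were counted only by size, at 2-fold or more. Both chow arrays, at 10 weeks and at 1 week, share their feed and differ in time on it and in age, and their pair serves as background. That pair shares the 10-week chow array with the main comparison, so each deviation of that array enters both.

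Both arrays of the comparison stand apart in their control probe sets. The 9 spike-in probe sets, for transcripts added in the laboratory, on the 10-week chow array had a geometric mean 5.76 times that of the 1-week chow array, against 1.87 times for the atorvastatin array. The 3 probe sets for 18S ribosomal RNA had a geometric mean of 13941 on the atorvastatin array, 738 on the 10-week chow array and 2185 on the 1-week chow array. The ratio of 3' to 5' signal for beta-actin, a sign of RNA integrity, was 1.32 with atorvastatin and 1.73 on chow at 10 weeks, and for Gapdh it was 0.876 and 0.906. The part of these differences in the gene results was not tested. The main results are therefore also given against the 1-week chow array or against whichever chow array lies nearer.

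A statin blocks cholesterol synthesis at an early step. A cell short of sterol responds by activating SREBP2, a transcription factor that raises the genes of cholesterol synthesis and of lipoprotein uptake, while dietary cholesterol does the opposite. Atherogenic feeds load mice with cholesterol, and in the liver they are known for fat storage and for inflammation. Hepatocytes make most of the RNA of liver, and Kupffer cells are its resident macrophages.

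With atorvastatin on the diet, 285 of 9264 measured genes (3.08%) were at least 2-fold higher than on chow at 10 weeks and 230 (2.48%) were at least 2-fold lower, 5.56% in all. The shares of 3.08% and 2.48% apply to each list count against chow at 10 weeks, also where they are not repeated. Between both chow arrays 403 of 9102 genes (4.43%) were past 2-fold, 224 (2.46%) higher at 10 weeks and 179 (1.97%) lower. The share past 2-fold was thus only a little larger than between a pair of pools on the same feed. Against the 1-week chow array 270 genes (2.94%) were higher and 172 (1.87%) lower, 4.8% in all. The atorvastatin signal lay at least 2-fold above the higher of both chow signals for 88 genes (0.924%) and at least 2-fold below the lower one for 53 (0.557%), 1.48% in all. Of the 285 higher genes 105 had a chow signal at the floor, and of the 230 lower genes 65 had an atorvastatin signal at the floor. Of the higher genes 207 had their highest signal of the 5 arrays with atorvastatin, and 139 of the lower genes had their lowest there. By any amount, 4836 of the 9264 measured genes had a positive ratio to chow at 10 weeks and 4428 a negative one. Likewise by any amount, 3556 of the 9264 measured genes lay above both chow arrays and 2695 below both. Most ratios past 2-fold were small: 44 genes were past 3-fold on the higher side and 32 on the lower, and 19 and 10 were past 4-fold. At 8-fold or more, 5 genes were higher, Saa2, Saa1, Msmo1, Lyz1 and Marco, and 0 were lower. By signal level the share past 2-fold was 10.2% in the second quartile of mean signal and 3.76% in the brightest quartile.

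**Figure D1:**
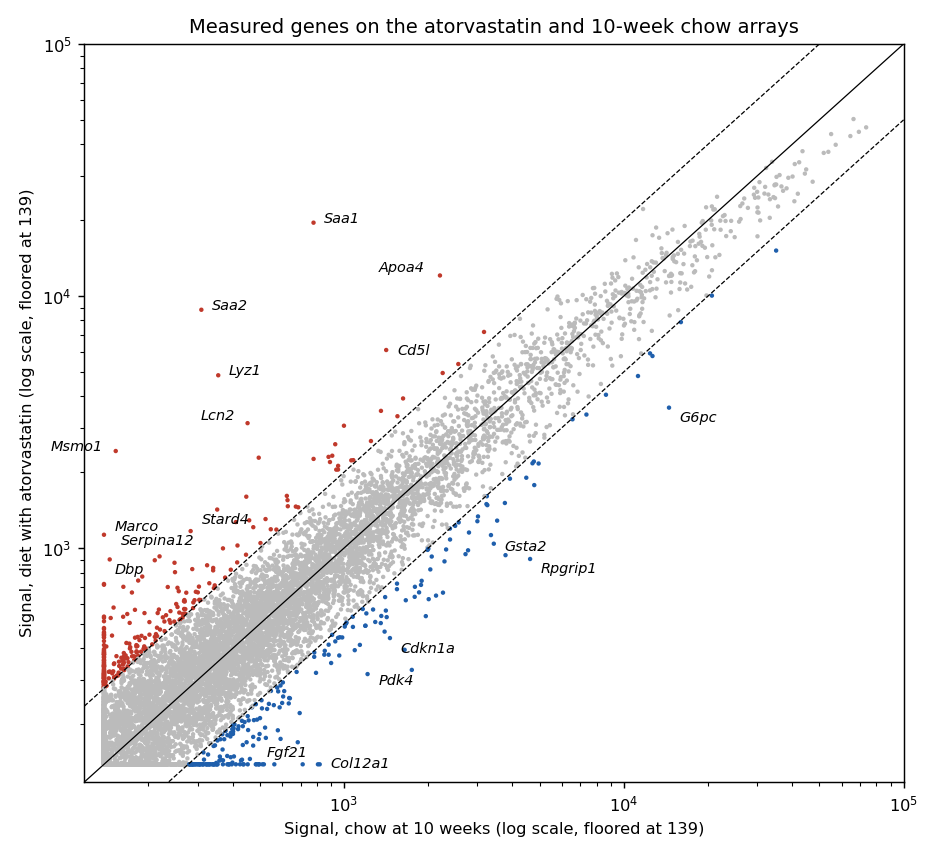
Signal of each of the 9264 measured genes on the 10-week chow array (x axis) and the atorvastatin array (y axis), both in MAS5 signal units on log scales and floored at 139, with the line of equality and dashed lines at 2-fold. Red points (285) are at least 2-fold higher with atorvastatin and blue points (230) at least 2-fold lower; Saa1, Saa2, Msmo1, Lyz1 and Marco lie farthest above the line.

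Acute phase genes held the largest ratios, in a few members and not in the list as a whole. Most of these genes encode plasma proteins that hepatocytes release in inflammation. The list also holds regulators and membrane proteins, among them Stat3, Cebpb, Il6ra, Cd14 and Steap4. Among 30 measured members 5 stood past 2-fold higher (Saa2, Saa1, Lcn2, Orm2 and Apcs) and 1 lower (Steap4), beside 3.08% and 2.48% of all genes. The list had 15 positive and 15 negative ratios, and its median was 0.032. The serum amyloid gene Saa1 had signals of 1094 on chow at 1 week, 778.5 on chow at 10 weeks, 754 on the diet at 1 week, 929 on the diet at 10 weeks and 19549.5 with atorvastatin. Its atorvastatin signal was 25.1-fold that of chow at 10 weeks, a log2 ratio of 4.65, and its other probe set gave 4.36. Saa2, its close copy, had 410.0 on chow at 1 week, 309 on chow at 10 weeks, 311 on the diet at 1 week, 570.1 on the diet at 10 weeks and 8824 with atorvastatin, a 28.5-fold higher signal than on chow at 10 weeks. For both genes the other 4 arrays lie close together and the atorvastatin array stands alone.

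Probe sets for Saa1 and Saa2 may share transcripts, since the genes are near-identical copies, so the split between them is uncertain. Lcn2, an iron-binding protein of the innate immune response, had 529.8 on chow at 1 week, 452 on chow at 10 weeks, 531 on the diet at 1 week, 431 on the diet at 10 weeks and 3132 with atorvastatin, a log2 ratio of 2.79. The acid glycoprotein gene Orm2 had 225 on chow at 1 week, 179 on chow at 10 weeks, 152 on the diet at 1 week, 227 on the diet at 10 weeks and 569 with atorvastatin, a ratio of 1.67. Serum amyloid P, encoded by Apcs, had 3693 on chow at 1 week, 3166 on chow at 10 weeks, 2467 on the diet at 1 week, 4051 on the diet at 10 weeks and 7206 with atorvastatin, a ratio of 1.19. These genes were highest on the atorvastatin array. Saa3, the serum amyloid of macrophages and other cells, had 0.59, with 449.5 and 312 on the chow arrays and 471 with atorvastatin. Haptoglobin, Hp, an abundant acute phase protein, had 32265 on chow at 10 weeks and 32226 with atorvastatin. Steap4, a metalloreductase, had 1663 and 621, a log2 ratio of -1.42, with 0.63 from its other probe set and -0.95 against chow at 1 week. Against the 1-week chow array the list median was 0.38, with 6 members past 2-fold higher, beside 2.94% of all genes. At least 2-fold above both chow arrays lay 4, beside 0.924% of all genes.

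The promoters of 4 of the 5 higher acute phase genes are printed because they hold a C/EBP motif, the recognition letters of a factor family that acts in the acute phase. The motif was searched as TTGCNNAA on both strands in the 250 bases before each annotated start (RefSeq, build GRCm38.p6), where it occurs in 9.56% of 32851 promoters and in 10.8% of 27025 genes. The motif was chosen after the values were seen. Each line gives 5′ to 3′ sequence on the gene's strand, with the match in capitals.
Saa1, chr7:46742981-46743230, - strand: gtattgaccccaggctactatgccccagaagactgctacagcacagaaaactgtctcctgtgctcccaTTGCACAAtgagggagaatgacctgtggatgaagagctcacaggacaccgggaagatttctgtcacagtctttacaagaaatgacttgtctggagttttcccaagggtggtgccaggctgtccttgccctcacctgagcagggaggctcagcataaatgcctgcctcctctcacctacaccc
Saa2, chr7:46751583-46751832, + strand: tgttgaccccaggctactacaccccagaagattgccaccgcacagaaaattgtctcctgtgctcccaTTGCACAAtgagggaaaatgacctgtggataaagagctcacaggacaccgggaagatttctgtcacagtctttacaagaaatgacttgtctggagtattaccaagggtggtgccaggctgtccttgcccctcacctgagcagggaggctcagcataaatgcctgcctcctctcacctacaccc
Lcn2, chr2:32387740-32387989, - strand: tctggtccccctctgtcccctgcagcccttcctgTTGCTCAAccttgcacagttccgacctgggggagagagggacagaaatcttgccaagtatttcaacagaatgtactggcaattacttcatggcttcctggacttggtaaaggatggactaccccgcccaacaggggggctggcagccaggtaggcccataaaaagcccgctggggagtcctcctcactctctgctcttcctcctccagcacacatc
Orm2, chr4:63362199-63362448, + strand: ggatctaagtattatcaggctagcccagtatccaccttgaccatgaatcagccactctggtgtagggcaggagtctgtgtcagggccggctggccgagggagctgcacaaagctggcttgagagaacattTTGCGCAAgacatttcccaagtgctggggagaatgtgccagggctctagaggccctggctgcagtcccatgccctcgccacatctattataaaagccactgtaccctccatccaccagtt
The match begins 182 bases before the start of Saa1, 183 before Saa2, 216 before Lcn2 and 120 before Orm2. The Saa1 and Saa2 windows share 94.8% of aligned positions. Apcs has no match in its window. Of 25 measured acute phase genes with a listed promoter 12 hold the motif, among them Steap4, which was lower, and Saa3. In all, 8 motifs were searched in the promoters of 3 lists (acute phase, cholesterol synthesis and clock). Besides those shown these were the E-box CACGTG, an NF-kB motif, CACCCCAC, whose letters overlap the sterol element given further on, the D-box TTATGTAA and the nuclear receptor site AGGTCA, present in 6.86%, 5.31%, 2.98%, 0.977% and 15.8% of genes, and in 1, 4, 0, 0 and 7 of the 25 acute phase genes. In the same order they were in 3, 1, 1, 0 and 2 of 14 cholesterol synthesis genes. In 14 clock genes the counts were 4, 0, 2, 1 and 4. The C/EBP motif was in 2 of 14 cholesterol synthesis genes and in 2 of 14 clock genes. A match describes the sequence only.

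**Figure D2:**
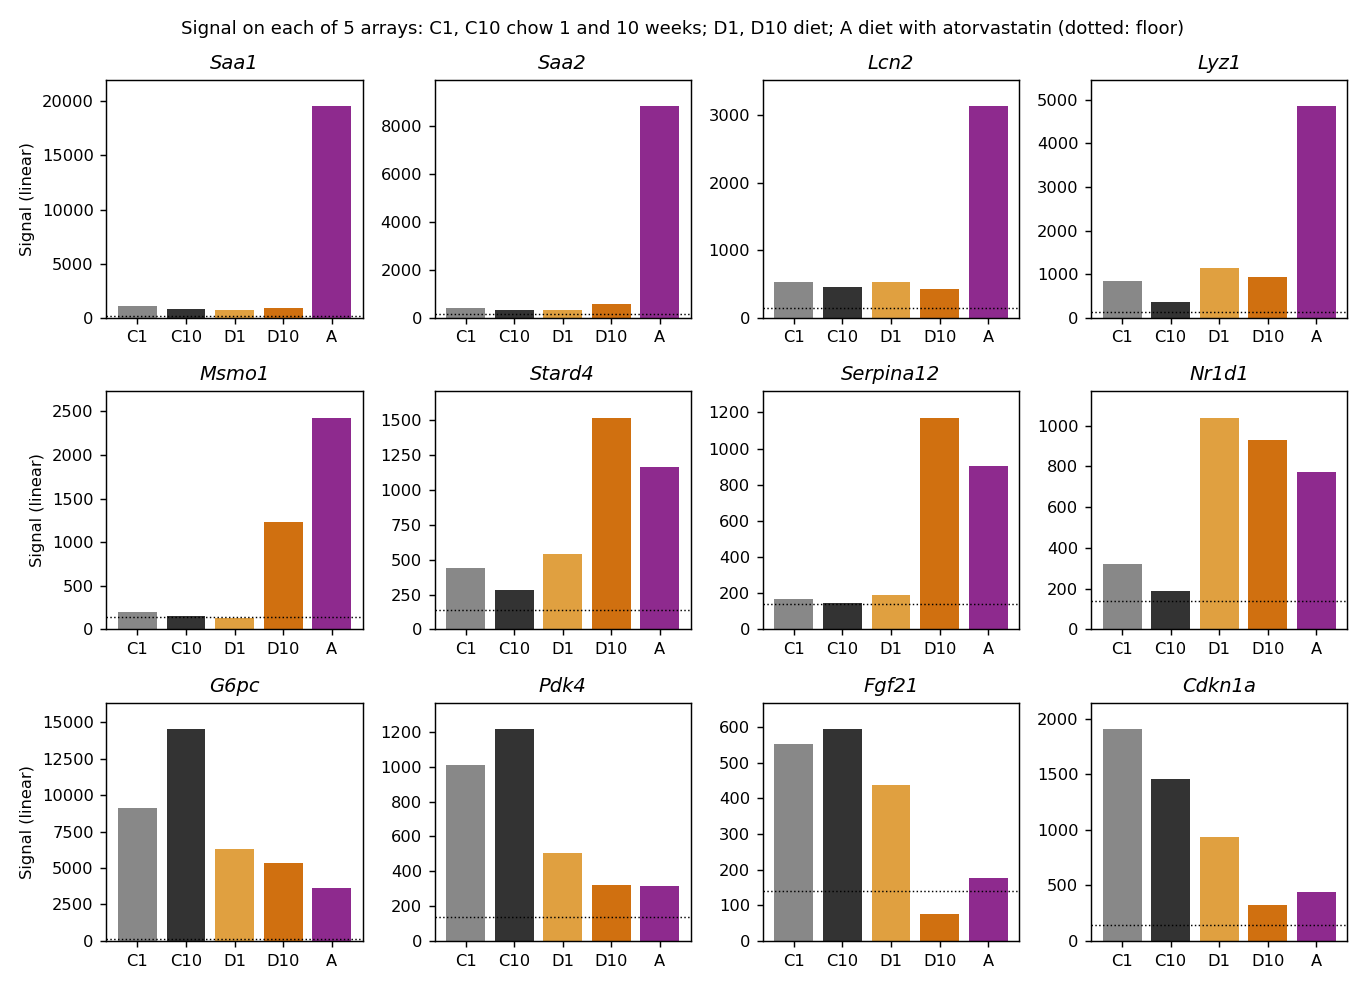
MAS5 signal on a linear scale of 12 genes on each of the 5 arrays: chow at 1 week (C1) and 10 weeks (C10), the diet at 1 week (D1) and 10 weeks (D10), and the diet with atorvastatin (A), with the floor as a dotted line and 1 array per bar. Saa1, Saa2, Lcn2 and Lyz1 are high only on the atorvastatin array among these arrays, Msmo1, Stard4 and Serpina12 are high on both 10-week diet arrays, and Pdk4, Fgf21 and Cdkn1a are low on both of them.

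Macrophage and Kupffer cell markers were the list with the largest share of members past 2-fold. Past 2-fold against chow at 10 weeks stood 12 of 19 measured members, all of them higher, beside 3.08% of all genes, with a median log2 ratio of 1.10 beside 0.024 over all measured genes. Their summed signal was 14274 on chow at 10 weeks, 21377 on chow at 1 week, 19129 on the diet at 1 week, 23725 on the diet at 10 weeks and 33811 with atorvastatin. The 10-week chow array was thus the lowest and the atorvastatin array the highest of the 5. Against the 1-week chow array the median was 0.46 and 3 members were past 2-fold, beside 2.94% of all genes. The same 3, Marco, Lyz2 and Cd5l, lay at least 2-fold above both chow arrays, beside 0.924% of all genes. By any amount 16 of the 19 lay above both, as did 3556 of all 9264 genes. The pair of chow arrays had a median of -0.66 for the list, lower at 10 weeks.

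The scavenger receptor gene Marco had 319 on chow at 1 week, 99.2 on chow at 10 weeks, 289.5 on the diet at 1 week, 123 on the diet at 10 weeks and 1130.0 with atorvastatin, which is at least 8.14-fold higher than chow at 10 weeks, where it was under the floor. On the diet at 10 weeks without the drug Marco was also under the floor. Cd5l, a protein secreted by tissue macrophages, had 2936 on chow at 1 week, 1416 on chow at 10 weeks, 2784 on the diet at 1 week, 3344 on the diet at 10 weeks and 6109 with atorvastatin, a log2 ratio of 2.11. The lysozyme gene Lyz2 had 997 on chow at 1 week, 1000.0 on chow at 10 weeks, 1041 on the diet at 1 week, 1562 on the diet at 10 weeks and 3059 with atorvastatin, a ratio of 1.61. Lyz1, a closely related lysozyme gene outside the list, had 842 on chow at 1 week, 355 on chow at 10 weeks, 1134 on the diet at 1 week, 924 on the diet at 10 weeks and 4849.5 with atorvastatin, 13.6-fold higher, and its other probe sets, under the floor on chow at 10 weeks, gave at least 1.27 and at least 2.10. Probe sets for both lysozyme genes may share transcripts.

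Other markers past 2-fold were the signalling adaptors Tyrobp (1.84) and Fcer1g (1.10), the complement C1q chains C1qc (1.54), C1qa (1.39) and C1qb (1.11), the Kupffer cell receptors Clec4f (1.47) and Vsig4 (1.13), and Cd68 (1.01), a lysosomal glycoprotein. The oxidase subunit gene Cybb was at least 2.13-fold higher. The 2 other probe sets of C1qb gave -0.078 and 0.84. Each of these genes had its highest signal of the 5 arrays with atorvastatin, as did 207 of all 285 higher genes, and each of these ratios was inside 2-fold against the 1-week chow array, between 0.30 for Cybb and 0.93 for Tyrobp. Adgre1, the F4/80 antigen of macrophages, had 812 on chow at 1 week, 515 on chow at 10 weeks, 538 on the diet at 1 week, 1084.5 on the diet at 10 weeks and 706.5 with atorvastatin, so that its atorvastatin signal lay between both chow signals. The properdin gene Cfp, a complement regulator of leukocytes that is not in the list, had 599.9 on chow at 1 week, 219 on chow at 10 weeks, 519.5 on the diet at 1 week, 784 on the diet at 10 weeks and 927.5 with atorvastatin, a ratio of 2.08.

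**Figure D3:**
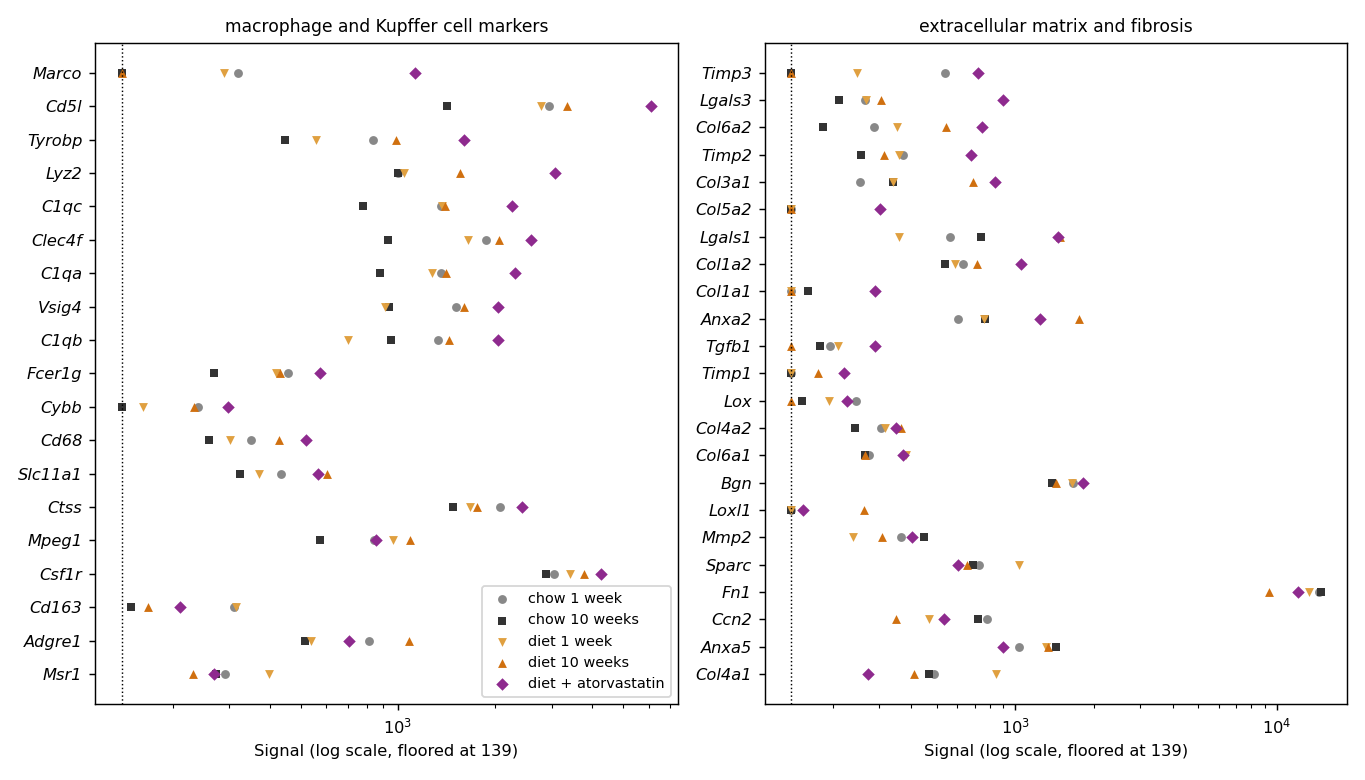
MAS5 signal (log scale, floored at 139, dotted line) of the 19 measured macrophage and Kupffer cell markers (left) and the 23 measured extracellular matrix and fibrosis genes (right), 1 symbol per array, ordered by the log2 ratio of atorvastatin over chow at 10 weeks. For most macrophage markers the 10-week chow squares lie lowest and the atorvastatin diamonds highest, with Adgre1 among the exceptions.

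In the extracellular matrix and fibrosis list 6 of 23 measured genes were past 2-fold higher and 0 lower, beside 3.08% and 2.48% of all genes, and the median was 0.67 against chow at 10 weeks and 0.43 against chow at 1 week. On the diet at 10 weeks without the drug the median was 0.0075 against the same chow array. There 4 members were past 2-fold higher and 1 lower, beside 309 and 284 of all 9264 genes. The galectin gene Lgals3, a lectin of macrophages and fibrotic tissue, had 266.5 on chow at 1 week, 211 on chow at 10 weeks, 269 on the diet at 1 week, 305 on the diet at 10 weeks and 895 with atorvastatin, a ratio of 2.09. The collagen VI chain gene Col6a2 had 288 on chow at 1 week, 184 on chow at 10 weeks, 353 on the diet at 1 week, 545 on the diet at 10 weeks and 744 with atorvastatin, a ratio of 2.02, and at least 2.10 from its other probe set. Both stood above the other 4 arrays. The collagen III gene Col3a1 had 254 on chow at 1 week, 341 on chow at 10 weeks, 342 on the diet at 1 week, 690.3 on the diet at 10 weeks and 834.5 with atorvastatin, a ratio of 1.29, with at least 0.14 from a second probe set that was under the floor on chow. Col5a2 was at least 2.19-fold higher. These 4 genes lay at least 2-fold above both chow arrays, beside 0.924% of all genes. The inhibitors of matrix proteases Timp3, at least 5.19-fold higher, and Timp2 (1.39) did not, with 0.42 and 0.86 against chow at 1 week. Averaging the probe sets of each gene left 3 members past 2-fold. The other probe sets of Timp3 gave 1.05 and 1.35 and of those of Timp2 1 gave 0.44 and the others, under the floor with atorvastatin, were lower than chow.

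Among other cell types, 1 of 11 stellate cell and fibroblast markers was past 2-fold higher, beside 3.08% of all genes, and the median was 0.20. The member past 2-fold was the intermediate filament gene Vim (1.63, other probe sets 0.58 and at least 0.76), with 0.73 against chow at 1 week. Endothelial markers had a median of 0.30 and -0.024 against the 10-week and the 1-week chow array. Of their 15 measured members 2 were past 2-fold higher, beside 3.08% of all genes. Lyve1, a hyaluronan receptor of sinusoids, was at least 3.7-fold higher. Ptprb, a receptor phosphatase, had 1.28, and 0.15 against chow at 1 week. Lyve1 had 988 on chow at 1 week and 513 with atorvastatin, so its direction turns with the chow array used, and its other probe set gave 0.29. Medians were -0.019 for 9 neutrophil markers, 0.20 for 9 lymphocyte markers and 0.18 for 6 MHC class II genes, each with 0 members past 2-fold. The MHC genes H2-Aa and H2-Ab1 had 0.33 and 0.36 by their brightest probe sets. Other probe sets gave 1.34 for H2-Aa, and 0.69 and at least 0.77 for H2-Ab1. The neutrophil genes S100a9, S100a8 and Ngp had 0.44, at least 0.40 and 0.52, and Mpo had -0.70.

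Hepatocyte markers were mostly lower than on chow at 10 weeks, with a median of -0.47. Of their 12 ratios 11 were negative, as were 4428 of all 9264. Past 2-fold lower stood 2 members, Tat and Pck1, beside 2.48% of all genes. Against chow at 1 week the median was 0.20, so this difference too depends on the chow array. Albumin, Alb, had 33062 on chow at 1 week, 69212 on chow at 10 weeks, 28036 on the diet at 1 week, 49348 on the diet at 10 weeks and 44816.5 with atorvastatin. The 10-week chow array was the brightest of the 5 for it. Plasma carrier genes of hepatocytes had a median of -0.45 and 0.26 against the 10-week and the 1-week chow array, with 0 of 8 past 2-fold. With quantile normalization the median of hepatocyte markers was -0.09. The defining markers of liver were bright on the atorvastatin array, with Alb at 44816.5 and the thyroid hormone carrier Ttr at 39829. Only 1 bile duct marker was measured, Krt19 (-0.69). Of 3 measured red cell genes 1 was past 2-fold lower, Alas2 (-1.06), beside 2.48% of all genes. Of 5 fat and pancreas genes 1 was past 2-fold higher, Fabp4 (1.22), beside 3.08% of all genes. Against chow at 1 week Alas2 had -0.71 and Fabp4 0.35. Of 3 muscle genes 0 were past 2-fold.

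**Figure D4:**
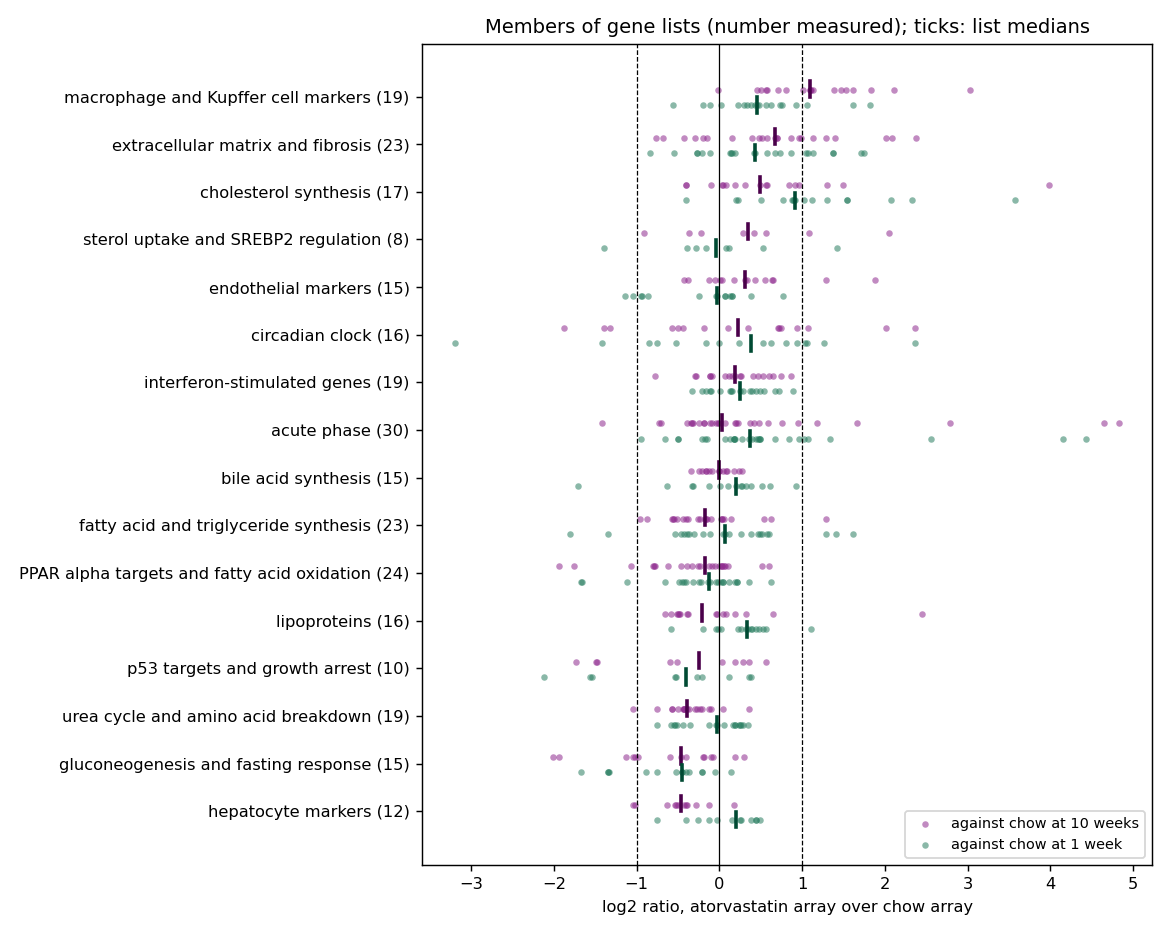
Log2 ratios of the atorvastatin array over the 10-week chow array (purple) and over the 1-week chow array (green) for the measured members of 16 gene lists, 1 point per gene, with list medians as vertical ticks and dashed lines at 2-fold. Macrophage markers have the highest median against chow at 10 weeks (1.10), cholesterol synthesis against chow at 1 week (0.92), and the medians of hepatocyte markers lie on opposite sides of 0 (-0.47 and 0.20).

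Genes of cholesterol synthesis were mostly higher than on chow. Past 2-fold stood 3 of 17 measured members, all higher, beside 3.08% of all genes. Positive ratios numbered 14, as against 4836 of all 9264, and the median was 0.50. Against the 1-week chow array the median was 0.92 with 8 members past 2-fold higher, beside 2.94% of all genes. Above both chow arrays by any amount lay 14 of 17, as did 3556 of all 9264 genes. The diet at 10 weeks without the drug had a median of 0.43 against the same 10-week chow array. The methylsterol oxidase gene Msmo1 had 204 on chow at 1 week, 153 on chow at 10 weeks, 130.1 on the diet at 1 week, 1230.4 on the diet at 10 weeks and 2428 with atorvastatin, 15.9-fold higher than chow at 10 weeks. It was the third largest ratio of all measured genes. The squalene synthase gene Fdft1 had 441 on chow at 1 week, 458.5 on chow at 10 weeks, 471 on the diet at 1 week, 1296 on the diet at 10 weeks and 1289 with atorvastatin, a log2 ratio of 1.49, with -0.09 and 1.47 from its other probe sets. The mevalonate kinase gene Mvk was under the floor on the other 4 arrays and had 341 with atorvastatin, at least 2.45-fold higher.

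Near the 2-fold line stood Idi1, the isomerase of isopentenyl diphosphate, with 259 on chow at 1 week, 663 on chow at 10 weeks, 175 on the diet at 1 week, 893 on the diet at 10 weeks and 1295 with atorvastatin, a ratio of 0.97 to chow at 10 weeks and 2.32 to chow at 1 week, and 1.45 from its other probe set to chow at 10 weeks. Squalene epoxidase, Sqle, had 345 on chow at 1 week, 336 on chow at 10 weeks, 201 on the diet at 1 week, 578 on the diet at 10 weeks and 637 with atorvastatin, a ratio of 0.92. HMG-CoA synthase, Hmgcs1, an early enzyme of the pathway, had 3422 on chow at 1 week, 3579 on chow at 10 weeks, 2777 on the diet at 1 week, 3654 on the diet at 10 weeks and 6415 with atorvastatin, a ratio of 0.84. Idi1, Sqle and Hmgcs1 were each highest on the atorvastatin array. The other 3 probe sets of Hmgcs1 ran from -0.44 to 0.12. The higher ratio of Hmgcs1 thus rests on 1 of its 4 probe sets.

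The promoters of Msmo1, the cholesterol gene with the largest ratio, and Hmgcs1 are printed for the motifs of sterol control. SREBP2 acts at sterol regulatory elements together with NF-Y, which binds CCAAT boxes. The element was searched as TCACNCCAC and the box as CCAAT, on both strands of the 250 bases before the start (RefSeq, GRCm38.p6), both chosen with the values known. In Msmo1 the capitals mark CCAAT and in Hmgcs1 the sterol regulatory element.
Msmo1, chr8:64733579-64733828, - strand: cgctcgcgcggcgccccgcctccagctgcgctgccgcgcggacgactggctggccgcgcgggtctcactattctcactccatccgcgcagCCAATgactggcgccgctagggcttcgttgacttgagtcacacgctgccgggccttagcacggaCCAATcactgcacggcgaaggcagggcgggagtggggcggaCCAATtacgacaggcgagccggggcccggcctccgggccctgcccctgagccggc
Hmgcs1, chr13:119690101-119690350, + strand: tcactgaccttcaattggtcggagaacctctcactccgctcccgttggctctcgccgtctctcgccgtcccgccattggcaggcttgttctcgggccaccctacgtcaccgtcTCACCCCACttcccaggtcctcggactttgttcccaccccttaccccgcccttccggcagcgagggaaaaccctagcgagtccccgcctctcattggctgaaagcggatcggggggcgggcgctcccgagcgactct
Msmo1 holds 3 CCAAT boxes, beginning 160, 96 and 55 bases before the start, and Hmgcs1 holds the element 137 bases before it. Of 14 measured cholesterol synthesis genes with a listed promoter 14 hold a CCAAT box, which 37.5% of genes hold, and 1, Hmgcs1, holds the element, which 1.22% of genes hold. CCAAT boxes were also found in 10 of 14 clock genes and 4 of 25 acute phase genes, and the element in 0 of 14 and 2 of 25. These counts describe sequence and were not tested.

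In sterol uptake and SREBP2 regulation 2 of 8 measured members were past 2-fold higher and 0 lower, beside 3.08% and 2.48% of all genes. The medians were 0.35 and -0.043 against the 10-week and the 1-week chow array. Stard4, which carries cholesterol between membranes, had 438 on chow at 1 week, 283 on chow at 10 weeks, 537 on the diet at 1 week, 1519 on the diet at 10 weeks and 1168.5 with atorvastatin, a ratio of 2.04, and at least 1.97 from its other probe set. Srebf2, the gene of SREBP2, had 749.8 on chow at 1 week, 271 on chow at 10 weeks, 628.5 on the diet at 1 week, 518 on the diet at 10 weeks and 573 with atorvastatin, so it was 2.11-fold above chow at 10 weeks (log2 0.41 by its other probe set) and below chow at 1 week. Insig2, a retention protein of the SREBP system, had 10478 on chow at 1 week, 7488 on chow at 10 weeks, 8479 on the diet at 1 week, 3785 on the diet at 10 weeks and 3996.5 with atorvastatin, a ratio of -0.91 with -1.20 and -1.03 from its other probe sets. It was low on both 10-week diet arrays.

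LXR targets and sterol exporters, which respond to a surplus of sterol, had a median of 0.13 and 1 of 9 past 2-fold, the lipoprotein lipase gene Lpl (1.30, other probe set at least 1.19). The half-transporters that move sterol into bile, Abcg5 and Abcg8, had 0.13 and -0.15. In bile acid synthesis 0 of 15 were past 2-fold and the median was 0. Cyp7a1, the rate-limiting enzyme of that pathway, had 2277 on chow at 1 week, 2798 on chow at 10 weeks, 1096 on the diet at 1 week, 1771.5 on the diet at 10 weeks and 2626.5 with atorvastatin, a ratio of -0.091 with 0.98 from its other probe set. Cyp8b1, which sets the cholic acid share, had 7198 on chow at 1 week, 5936 on chow at 10 weeks, 7230.1 on the diet at 1 week, 2338 on the diet at 10 weeks and 4661 with atorvastatin, a ratio of -0.35. By these signals both genes lay nearer chow with atorvastatin than on the diet at 10 weeks alone. The other probe set of Cyp7a1 did not. It had 945.4 on chow at 1 week and 664.4 on chow at 10 weeks. On the diet at 10 weeks it had 575.6, and with atorvastatin 1309.7. Cyp39a1, an oxysterol hydroxylase, had -0.24 against chow at 10 weeks and -1.71 against chow at 1 week. Nr0b2, the bile acid-induced repressor, had 0.27. Baat, another member of the bile acid synthesis list, had 0.23, but -1.66 by its other probe set.

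Of 9 bile acid and bilirubin transport genes 1 was past 2-fold, the basolateral exporter Abcc3. It had 4961 on chow at 10 weeks and 2166 with atorvastatin, a ratio of -1.20, and -0.74 against chow at 1 week. The bile salt export pump Abcb11 had -0.26. Lipoprotein genes had medians of -0.21 and 0.34, with 1 of 16 past 2-fold. Apoa4, an apolipoprotein of triglyceride transport, had 5582 on chow at 1 week, 2203 on chow at 10 weeks, 13218 on the diet at 1 week, 7190.1 on the diet at 10 weeks and 12068 with atorvastatin, a ratio of 2.45 with 3.44 from its other probe set. It was above both chow arrays on each of the 3 diet arrays. Apob, the structural protein of very low density lipoprotein, had 22318.5 on chow at 1 week, 20898 on chow at 10 weeks, 20137 on the diet at 1 week, 6219 on the diet at 10 weeks and 22042 with atorvastatin. Its atorvastatin signal stood with the chow arrays, and the diet at 10 weeks alone was low.

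Genes that make fatty acids and triglycerides lay close to chow at 10 weeks with the drug, and some differed from chow at 1 week. Against the 1-week chow array 3 of 23 were past 2-fold higher and 2 lower, beside 2.94% and 1.87% of all genes. Past 2-fold stood 1 of 23 measured members, Scd2, and the list had a median of -0.17, where the diet at 10 weeks alone had 0.69 against the same chow array and 9 members past 2-fold higher, beside 3.64% of all genes in that comparison. Both comparisons share the 10-week chow array. Fatty acid synthase, Fasn, had 750.5 on chow at 1 week, 1244.5 on chow at 10 weeks, 679 on the diet at 1 week, 3783 on the diet at 10 weeks and 1122 with atorvastatin, a ratio of -0.15. The elongase gene Elovl6 had 783 on chow at 1 week, 558 on chow at 10 weeks, 694 on the diet at 1 week, 1902 on the diet at 10 weeks and 568 with atorvastatin, a ratio of 0.025, with 0.90 from a dimmer second probe set. Thrsp, a regulator of lipogenesis, had 1475 on chow at 1 week, 2539.8 on chow at 10 weeks, 1274 on the diet at 1 week, 11944 on the diet at 10 weeks and 3923 with atorvastatin, a ratio of 0.63 to chow at 10 weeks (0.49 by its other probe set) and 1.41 to chow at 1 week. In these genes the diet at 10 weeks stood alone at the top and the atorvastatin array was nearer to chow.

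The lipogenic factor Srebf1 had 625 on chow at 1 week, 1737.5 on chow at 10 weeks, 764 on the diet at 1 week, 3729 on the diet at 10 weeks and 1923.5 with atorvastatin, so it was level with chow at 10 weeks (0.15) and above chow at 1 week (1.62). The acetyl-CoA carboxylase gene Acacb had 484 on chow at 1 week, 203 on chow at 10 weeks, 324 on the diet at 1 week, 851 on the diet at 10 weeks and 66.5 with atorvastatin, under the floor with atorvastatin. The main liver desaturase gene Scd1 had -0.38, and 0.45 by its other probe set, so its sign depends on the probe set. The desaturase gene Scd2 was under the floor on both chow arrays and at least 2.45-fold higher (at least 0.12 and at least 0.37 in log2 by its other probe sets). Gpam, the first acyltransferase of triglyceride synthesis, had -0.87 (1.23 by its second probe set) and the elongase gene Elovl3 -0.96.

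Lipid droplet genes had a median of -0.23 with 0 of 15 past 2-fold. The droplet coat gene Plin5 had -0.98, Plin2 -0.71, the lipase cofactor Abhd5 0.74 (1.25 from its other probe set) and the fatty acid translocase Cd36 0.65. Fatty acid binding proteins had 3 of 5 measured members past 2-fold higher, beside 3.08% of all genes. The intestinal type Fabp2 had 3658 and 2562.5 on the chow arrays and 5375 with atorvastatin (1.07). Fabp4, of fat cells and macrophages, had 1.22 (other probe sets at least 0.19 and at least 0.59), and Fabp7 was at least 2.4-fold higher. Of these Fabp7 alone was past 2-fold against both chow arrays. Fabp5 had 413 on chow at 1 week, 542 on chow at 10 weeks, 755 on the diet at 1 week, 4497 on the diet at 10 weeks and 745 with atorvastatin, a ratio of 0.46 (0.93 by its other probe set), and the diet at 10 weeks alone stood apart. Fabp1, the main form of hepatocytes, had -0.49.

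Genes of glucose output and the fasting response were mostly lower than on chow. Past 2-fold stood 5 of 15 measured members, all lower, beside 2.48% of all genes. Negative ratios numbered 13, as against 4428 of all 9264. The median was -0.46 against chow at 10 weeks and -0.46 against chow at 1 week. Of the 15, 12 lay below both chow arrays by any amount, as did 2695 of all 9264 genes. The diet at 10 weeks without the drug had -0.52 for the list. Glucose-6-phosphatase, G6pc, the last step of glucose release, had 9106 on chow at 1 week, 14509.7 on chow at 10 weeks, 6277 on the diet at 1 week, 5372 on the diet at 10 weeks and 3608.5 with atorvastatin, a ratio of -2.01. Pdk4, a kinase that spares glucose by inhibiting pyruvate dehydrogenase, had 1011.5 on chow at 1 week, 1214.5 on chow at 10 weeks, 504 on the diet at 1 week, 321 on the diet at 10 weeks and 316.5 with atorvastatin, a ratio of -1.94. Igfbp1, an insulin-repressed binding protein, had 14692 on chow at 1 week, 12664 on chow at 10 weeks, 12682 on the diet at 1 week, 7246 on the diet at 10 weeks and 5783 with atorvastatin, a ratio of -1.13. These 3 genes had their lowest signal of the 5 arrays with atorvastatin, as did 139 of all 230 lower genes. Their signal lay at least 2-fold below both chow arrays, beside 0.557% of all genes.

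Pck1, the PEP carboxykinase gene, had 10441 on chow at 1 week, 16001 on chow at 10 weeks, 9052 on the diet at 1 week, 8086.5 on the diet at 10 weeks and 7881 with atorvastatin, a ratio of -1.02, and Tat, a tyrosine aminotransferase, had -1.04. Against chow at 1 week they had -0.41 and -0.75. Irs2, an insulin receptor substrate, had -0.98. PPAR alpha targets and fatty acid oxidation genes had a median of -0.17. Past 2-fold stood 3 of 24 lower and 0 higher, beside 2.48% and 3.08% of all genes. These 3, Pdk4, Fgf21 and Ehhadh, all lay at least 2-fold below both chow arrays as well, beside 0.557% of all genes. The fasting hormone gene Fgf21 had 553 on chow at 1 week, 594 on chow at 10 weeks, 438 on the diet at 1 week, 75.2 on the diet at 10 weeks and 175 with atorvastatin, a ratio of -1.76. Ehhadh, a peroxisomal oxidation enzyme, had 12879 on chow at 1 week, 12410.4 on chow at 10 weeks, 11885 on the diet at 1 week, 7085 on the diet at 10 weeks and 5925 with atorvastatin, a ratio of -1.07. The acyl-CoA thioesterase gene Acot1 had -0.80, Ppara -0.79 and Acaa1b -0.78. Against chow at 1 week they had -0.42, 0.04 and 0.19, so Ppara and Acaa1b were lower only against chow at 10 weeks.

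In the urea cycle and amino acid breakdown 1 of 19 was past 2-fold, Tat, with medians of -0.39 and -0.029 against the 10-week and the 1-week chow array. The urea cycle lyase Asl had -0.58 and carbamoyl phosphate synthetase Cps1 -0.50. Glycolysis, fructose and glycogen genes had a median of 0.04 with 0 of 13 past 2-fold. In the growth hormone and IGF axis 2 of 11 were past 2-fold lower, beside 2.48% of all genes. They were Igfbp1 and Stat5a (-1.13, and -0.22 against chow at 1 week). The other probe set of Stat5a was under the floor on chow and higher with atorvastatin. Igfals, a carrier of IGF, had 0.75.

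Clock genes differed from chow in both directions. The clock is a daily loop in which Arntl and its partner drive their own repressors. The hour of sampling is not given in the sources used here. Of 16 measured members 3 were past 2-fold higher and 3 lower, beside 3.08% and 2.48% of all genes. The list had a median of 0.23. The output factor Dbp had 96.3 on chow at 1 week, 108 on chow at 10 weeks, 414.5 on the diet at 1 week, 1231 on the diet at 10 weeks and 716 with atorvastatin, at least 5.16-fold higher, and its other probe set, at the floor on both chow arrays, gave 2.27 or more in log2. The repressor Nr1d1 had 321 on chow at 1 week, 190.2 on chow at 10 weeks, 1039 on the diet at 1 week, 930.3 on the diet at 10 weeks and 771 with atorvastatin, a ratio of 2.02, and its relative Nr1d2 had 0.71 (at least 1.20 by its other probe set). Tef, a factor related to Dbp, had 1089 on chow at 1 week, 1062 on chow at 10 weeks, 2153.5 on the diet at 1 week, 2259 on the diet at 10 weeks and 2229.8 with atorvastatin, a ratio of 1.07, while its other probe set had 46.8 on chow at 10 weeks, under the floor, and 139 with atorvastatin. By their brightest probe sets Dbp, Nr1d1 and Tef were above both chow arrays on all 3 diet arrays. The other probe set of Tef was not, since its highest signal of the 5 arrays was 178.1 on chow at 1 week.

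On the lower side of the clock stood Arntl with 683 on chow at 1 week, 637 on chow at 10 weeks, 279.9 on the diet at 1 week, 168 on the diet at 10 weeks and 254 with atorvastatin, a ratio of -1.32. Nfil3, a repressor that opposes Dbp, had 1266 on chow at 1 week, 511 on chow at 10 weeks, 366 on the diet at 1 week, 325 on the diet at 10 weeks and 73.1 with atorvastatin and was at least 3.68-fold lower. Per1, a repressor of Arntl, had 435 on chow at 10 weeks and 166 with atorvastatin, a ratio of -1.39, but -0.52 against chow at 1 week. Arntl and Nfil3 were at least 2-fold below both chow arrays, beside 0.557% of all genes.

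Among p53 targets and growth arrest genes 3 of 10 measured were past 2-fold lower and 0 higher, beside 2.48% and 3.08% of all genes, with medians of -0.24 and -0.40 against the 10-week and the 1-week chow array. Cdkn1a, the p21 inhibitor of the cell cycle, had 1906 on chow at 1 week, 1460.0 on chow at 10 weeks, 933 on the diet at 1 week, 321 on the diet at 10 weeks and 439.8 with atorvastatin, a ratio of -1.73. Trp53inp1, a p53-induced protein, had 1975 on chow at 1 week, 1856 on chow at 10 weeks, 1382 on the diet at 1 week, 1096 on the diet at 10 weeks and 668 with atorvastatin, a ratio of -1.47 with -0.65 from its other probe set. Gadd45g, a stress sensor, had 403 on chow at 1 week, 389 on chow at 10 weeks, 619 on the diet at 1 week, 301 on the diet at 10 weeks and 58.9 with atorvastatin and was at least 2.8-fold lower. For these 3 genes the signal was at least 2-fold below both chow arrays, beside 0.557% of all genes.

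Of 14 measured cell cycle genes 1 was past 2-fold higher and 1 lower, beside 3.08% and 2.48% of all genes. They were the mitotic kinase gene Aurka (1.03, and -0.19 against chow at 1 week) and Rrm2, a ribonucleotide reductase subunit (-1.21). A further 13 members with a probe set were not measured. Prenylated small GTPases, whose lipid anchor comes from the pathway that statins block, had medians of 0.053 and -0.245 against the 10-week and the 1-week chow array. Past 2-fold against chow at 10 weeks stood 1 of 26, Nras, at least 2.12-fold higher, with -0.21 and at least 0.30 from its other probe sets. Rhob had 1605 on chow at 1 week, 1163 on chow at 10 weeks, 1457.5 on the diet at 1 week, 920.4 on the diet at 10 weeks and 1492 with atorvastatin, a ratio of 0.36. Heat shock genes had medians of -0.13 and -0.55 against the 10-week and the 1-week chow array. Hspa1b, the inducible HSP70, was past 2-fold lower than chow at 10 weeks at -1.32 (other probe sets -1.14 and -0.71). Against chow at 1 week 2 of 15 were past 2-fold lower, beside 1.87% of all genes. In ER and amino acid stress 1 of 21 was past 2-fold, Pdia4 (-1.01, 0.54 from its other probe set), and the median was -0.10. Immediate early genes had -0.074 with 0 of 18 past 2-fold, Junb at 0.96 being the largest. Jun had -0.55, and -1.05 by its other probe set.

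Drug-metabolising cytochromes P450 had medians of -0.14 and 0.11 against the 10-week and the 1-week chow array. Past 2-fold against chow at 10 weeks stood 1 of 25, Cyp2d9, which is male-biased in liver. It had 1443 on chow at 1 week, 1194 on chow at 10 weeks, 1772 on the diet at 1 week, 885 on the diet at 10 weeks and 492.5 with atorvastatin, a ratio of -1.28. Cyp2b10 and Cyp3a11, which foreign compounds induce through the receptors CAR and PXR, had 0.11 and -0.65. Against chow at 1 week these 2 genes had -0.26 and -0.04. In the list of glutathione, NRF2 and metallothionein genes 1 of 25 was past 2-fold higher and 1 lower, beside 3.08% and 2.48% of all genes. The median was -0.089. The glutathione transferase gene Gsta2 had 1362 on chow at 1 week, 3432 on chow at 10 weeks, 483 on the diet at 1 week, 597 on the diet at 10 weeks and 1041 with atorvastatin, a ratio of -1.72 to chow at 10 weeks and -0.39 to chow at 1 week. Gstm3 had 1148 on chow at 1 week, 953 on chow at 10 weeks, 509 on the diet at 1 week, 2526 on the diet at 10 weeks and 2120.5 with atorvastatin, a ratio of 1.15 with 1.08 from its other probe set. The metallothionein genes Mt1 and Mt2 had -0.76 and -0.55, and the other probe set of Mt1 gave 1.14.

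Conjugation, alcohol and aldehyde enzymes had medians of -0.13 and 0.15 against the 10-week and the 1-week chow array. Past 2-fold against chow at 10 weeks stood 1 of 26, the retinol-metabolising dehydrogenase gene Adh7 (1.11, 0.13 against chow at 1 week). Of 7 male-biased liver genes 1 was past 2-fold lower, Cyp2d9, beside 2.48% of all genes. Of 9 female-biased ones 1 was past 2-fold higher, Cyp17a1 (1.14, -0.23 against chow at 1 week), beside 3.08% of all genes. Heme synthesis and iron genes had a median of -0.04 with 0 of 20 past 2-fold, with heme oxygenase Hmox1 at 0.81 and the iron hormone gene Hamp at -0.70.

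Among immune lists beyond the acute phase, complement and coagulation had a median of 0.085. Its 3 of 32 members past 2-fold, all higher, beside 3.08% of all genes, were the C1q chains, which are also macrophage markers. Interferon-stimulated genes had 0.19 with 0 of 19 past 2-fold, Irf1 at 0.86 and Tap1 at -0.78. Of 17 chemokine, cytokine and NF-kB genes 2 were past 2-fold higher and 0 lower, beside 3.08% and 2.48% of all genes. They were the chemokine Ccl6 (1.20, other probe set 0.69) and the adhesion gene Icam1 (1.07), with 0.26 and 0.46 against chow at 1 week. The cytokine gene Tnf had -0.66.

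Outside the lists, Serpina12, which encodes the adipokine vaspin, had 170.0 on chow at 1 week, 145.5 on chow at 10 weeks, 189 on the diet at 1 week, 1170.1 on the diet at 10 weeks and 902 with atorvastatin, 6.2-fold higher than chow at 10 weeks and high on both 10-week diet arrays. The kinase gene Dyrk1b had 2.11, but its 1-week chow signal of 748 was close to the 702 with atorvastatin. The noncoding RNA Malat1 had 2.20, while its 4 other probe sets ran from -1.03 to 0.71. The taurine transporter gene Slc6a6 was at least 3.81-fold higher and Stac2 at least 3.86-fold, with 0.21 and 0.99 against chow at 1 week. The other probe set of Slc6a6 gave -0.076. Tpbpa, a placental gene, was under the floor on the other 4 arrays and had 455 with atorvastatin.

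Several of the genes lowest against chow at 10 weeks had a much higher signal there than on the 1-week chow array. Gsdme had 1748 on chow at 10 weeks, 491 on chow at 1 week and 329 with atorvastatin. Its other probe set, under the floor on chow at 10 weeks, gave at least 0.26. Rpgrip1 had 4626 on chow at 10 weeks, 712 on chow at 1 week and 906 with atorvastatin. The mitochondrial carrier gene Slc25a30 had 3779, 808.5 and 938, and its other probe sets ran from -1.40 to -0.73 against chow at 10 weeks. Rpgrip1 and Slc25a30 were thus lower than chow at 10 weeks by 5.11-fold and 4.03-fold but not lower than chow at 1 week. Ube2w (-2.06), Birc6 (-1.87), Zfp207 (-1.76), Nrip1 (-1.65), Tfb2m (-1.68) and Col12a1, at least 5.9-fold lower, were all inside 2-fold against chow at 1 week. The other probe sets of Birc6 and Nrip1 gave -0.27 and -0.86, and of those of Zfp207 1 gave 0.17 and the other was lower, under the floor with atorvastatin.

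Lower than both chow arrays by at least 2-fold were the transcription factor Sp3, with 459.7 on chow at 1 week, 684 on chow at 10 weeks, 592 on the diet at 1 week, 235 on the diet at 10 weeks and 169.8 with atorvastatin, and the acyl-CoA synthetase gene Acsf2, with 485 on chow at 1 week, 517 on chow at 10 weeks, 657 on the diet at 1 week, 266 on the diet at 10 weeks and 73.5 with atorvastatin. The ribosome assembly gene Rrs1 was at least 5.13-fold lower, Wdtc1 at least 5.82-fold, Kansl1 at least 4.06-fold (its other probe set had 146 on chow at 10 weeks and was under the floor with atorvastatin) and the protease gene Bace1 at least 3.59-fold (other probe sets -0.71, -0.071 and at least 0.78). Nucks1 had 2100.1 on chow at 1 week, 2133 on chow at 10 weeks, 2219 on the diet at 1 week, 1957.5 on the diet at 10 weeks and 648 with atorvastatin, a ratio of -1.72, and its 3 other probe sets ran from -0.94 to 0.42. Of the 285 higher genes 86 had another measured probe set, and in 14 of them another one was also past 2-fold higher. Of the 230 lower genes 99 had one, and in 12 another one was also past 2-fold lower.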

How the data were processed

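Liver RNA of 5 groups was measured on 5 arrays. The values are intensity as the authors deposited it, linear MAS5 signals per the submitters' processing notes. Livers were pooled before extraction, per the labels' protocols.

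Arrays were rescaled to a common 2% trimmed mean, 64 control probe sets were left out, signals were floored at their 40th percentile (138.8) and logged to base 2. The platform annotation gives 20393 of 22690 probe sets 1 gene symbol, 691 several and 1606 none listed, and 99.9% of identifiers matched assembly GRCm38.p6 (0 symbols changed). The brightest probe set stands for a gene. The ratio code was tested on simulated data. With 1 array a side no test was made.

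Of 776 genes in 44 lists 682 have a named probe set, and 5 lists follow symbol patterns. The members, lists and rule for named genes were chosen with earlier results of these data known. The rule takes the 15 largest ratios per direction, 5 bounds per direction, 10 per direction farthest from the nearer chow array, up to 6 members per list and all past 2-fold, and 44 preset genes, 40 of them with a probe set. The lists whose member counts were recomputed, the 16 plotted lists and the motifs were picked after their values were seen, and the symbol-pattern lists were added after the files were read. Alternatives were other normalizations, floors, a pseudocount, probe-set rules, fold rules and chow references. Python 3.11.15, pandas 2.3.3 and limma 3.58.1 (cyclic loess) were used.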

Additional observations from a re-analysis of the deposited data

Results flagged for a closer look

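The 18S ribosomal RNA control probe sets, which are outside the gene comparison, had a geometric mean signal of 13941.4 on the atorvastatin array against 437 to 2185 on the other arrays, above both chow arrays. The part of this difference in the gene ratios was not tested.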

How the results depend on the processing

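The counts of 285 higher and 230 lower genes were 1101 and 949 at 1.5-fold and 44 and 32 at 3-fold. A floor at the 20th percentile gave 845 and 641, one at the 60th gave 91 and 110, a pseudocount gave 172 and 137, averaged probe sets gave 183 and 122. They were 167 and 117 against the mean of both chow arrays, and 88 and 53 against the nearer one. The 403 genes of the chow pair became 1309, 171, 207 and 242 under those 4, alternatives chosen after seeing the data. With no rescaling, quantile normalization, cyclic loess, no x and s probe sets, or the 1-week chow array, the counts stayed within 1.5 times. Higher genes made up 55.3% of those past 2-fold, and 45.3% under the higher floor. The overall share stayed above that of the chow pair in each of the 8 settings where both were counted, with 3.07% against 2.69% under the higher floor as the smallest gap.

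List medians moved by more than the spread of their members in 13 of 523 recomputed cases. Hepatocyte plasma carriers moved to -0.064 with quantile normalization, -0.33 with cyclic loess, 0.26 against chow at 1 week, -0.11 against both and 0 against the nearer chow array. Hepatocyte markers moved to -0.09, to 0.20 against chow at 1 week, -0.11 against both and 0 against the nearer. Against chow at 1 week bile acid synthesis had 0.21, MHC class II 0.57 and urea cycle genes -0.029, the last also against the nearer array. Counts of members past 2-fold, recomputed after seeing the data, became 3 for macrophage markers against chow at 1 week and against the nearer array and 6 against the mean of both. They became 8 and 5 for cholesterol synthesis against chow at 1 week and the mean of both, 3 for matrix genes with averaged probe sets, and 3 for gluconeogenesis against the mean of both and the nearer. The cause was not tested.

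Of 303 named genes 9 past 2-fold turned sign in 1 alternative. Against chow at 1 week these were Aurka (-0.19), Cyp17a1 (-0.23), Dyrk1b (-0.091), Lyve1 (-0.95), Rpgrip1 (0.35), Slc25a30 (0.21) and Srebf2 (-0.39). Malat1 had -0.049 without x and s probe sets, and Nras -0.21 under the lower floor. No paired analysis was possible because each group has 1 array.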

Other observations

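Housekeeping complexes, grouped by symbol pattern, lay close to chow at 10 weeks on the atorvastatin array. Cytosolic ribosomal proteins had a median log2 ratio of 0.067 with 0 of 44 past 2-fold. Mitochondrial ribosomal proteins had 0.095 with 1 of 70, Mrps5 (-1.14, other probe set -0.20, and -0.58 against chow at 1 week). Respiratory chain and ATP synthase subunits had 0.044 with 2 of 68 lower, beside 2.48% of all genes. They were Ndufa10 (-1.01, and -0.93 against chow at 1 week) and Ndufb1, at least 2.03-fold lower. Proteasome subunits had 0.063 with 1 of 36 higher, Psmd13 (1.31, 0.062 from its other probe set, and 0.76 against chow at 1 week).

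Of 183 measured solute carriers 3 were past 2-fold higher and 2 lower, beside 3.08% and 2.48% of all genes, and the median was -0.024. The urea transporter gene Slc14a2 was under the floor on chow at 10 weeks and had 464 with atorvastatin, at least 3.34-fold higher, with -0.059 from its other probe set. The phosphate transporter gene Slc34a1 had 1.15, and 0.47 against chow at 1 week. The amino acid transporter gene Slc38a2 had -1.03, with 2497 on chow at 10 weeks and 1225.5 with atorvastatin, and -0.87 against chow at 1 week.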
